A study of Trifolium repens with 6 samples.

Results

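Abundant petal transcripts that were higher under shade numbered 90, out of 152107 assembled transcripts (unigenes) of white clover, Trifolium repens, listed in the deposited tables. Shaded and field petals of a red-flowered mutant of this forage legume were sequenced as bulk RNA, with 3 libraries per condition. Plants rich in buds were split into the 2 groups before flowering. A cubic net was placed over the shaded plants, and their petals were recorded as white. The field plants stayed in the open and their petals were recorded as red. All plants were of the same mutant and grew in the field up to the bud stage, so neither group is a wild type, and the labels give no plant age and no allele. The net may change more than the light on the flowers, and petals of both groups are known only by their label, because no petal marker can be looked up among unnamed transcripts. Nothing in the labels says whether the libraries of a condition came from separate plants, so all spreads given here are between libraries and may be partly technical.

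The 90 unigenes were chosen by their measured level. FPKM is the number of fragments per kilobase of transcript, scaled to library size, so it allows levels of transcripts of different length to be set side by side. Of 60810 unigenes of at least 500 bases, 7952 had at least 10 FPKM in each field library, and 737 of these had at least 100 FPKM in each shaded library. In 90 of the 737 the lowest shaded library was at least 2 times the highest field library. In another 236 the lowest shaded library was above the highest field library by less than that factor, and in 411 the conditions met or overlapped or the field was higher. Since the level under shade and in the field selected these 90, their difference between conditions is a description below and carries no test. More cells of a type that makes a transcript and more of that transcript per cell cannot be told apart in bulk petal RNA.

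Petal colour in many flowers comes from anthocyanins, pigments made by the flavonoid pathway and stored in the vacuoles of epidermal cells, and light is a widely known inducer of that pathway. Shade is also known to alter plant gene expression through photoreceptors and through sugar supply, and petals change their transcripts as they open and age. The deposited tables pair no unigene with a gene name or a sequence, so none of the 90 can be placed in these processes here. They are described by level, length, assembly cluster and behaviour across libraries, and are named by rank and length, apart from a few assembly IDs.

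Library totals lay between 14221859 and 20414104 expected counts, the read numbers that RSEM assigned to unigenes. The smallest expected count of any of the 90 unigenes was 73 in any library and 821 in a shaded library. The libraries differ in fragment length: the median of length minus effective length was 163.1 bases in shaded replicate 1 and 204.6 and 210.9 bases in shaded replicates 2 and 3, against 166.1 and 168.4 bases in field replicates 1 and 2 and 227.9 bases in field replicate 3. Libraries under 180 bases are called short-fragment libraries below and the rest long-fragment libraries. The labels do not say that these are batches.

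The 90 unigenes covered a wide range of levels. Their mean level under shade ran from 119.4 to 8965 FPKM with a median of 318.9, and their mean level in the field ran from 21.3 to 1723 FPKM with a median of 62.5. At least 200 FPKM on average under shade was reached by 69 of them, at least 500 by 25 and at least 1000 by 11. They made up 25 of the 100 unigenes of at least 500 bases with the highest mean shaded level and 2 of the 100 with the highest mean field level. The ratio of the shaded mean to the field mean had a median of 4.69 and ran from 2.20 to 25.8. It was at least 5 in 42 of the 90 and at least 10 in 8.

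**Figure D1:**
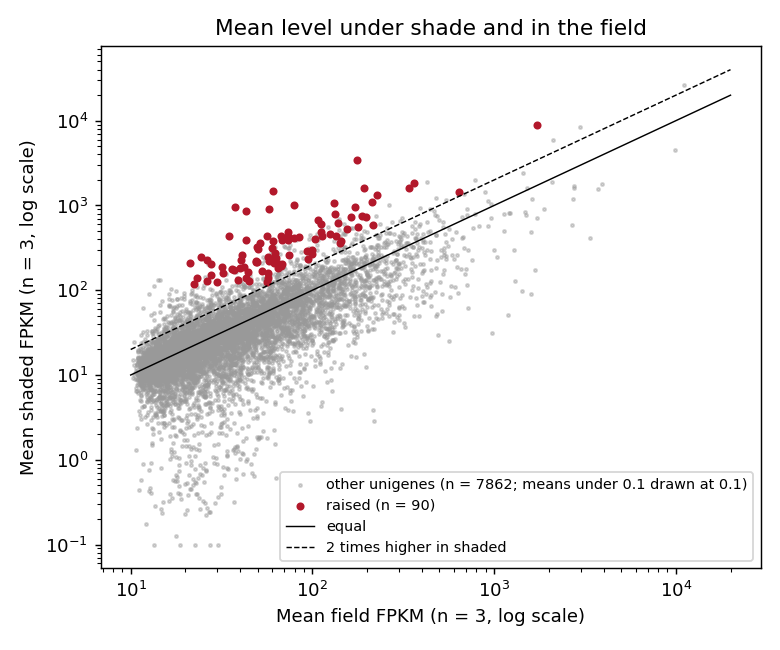
Mean FPKM of 3 shaded libraries (vertical, log scale) against mean FPKM of 3 field libraries (horizontal, log scale) for unigenes of at least 500 bases with at least 10 FPKM in each field library, one point per unigene. The 90 raised unigenes (red) lie above the line of a 2-fold difference and range from 119.4 to 8965 FPKM under shade. The 7862 others are grey.

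The most abundant of the 90, Unigene13734_All with 615 bases, had 9479, 9940 and 7477 FPKM in shaded replicates 1 to 3, against 594, 2059 and 2515 FPKM in field replicates 1 to 3. All shaded libraries lay above all field libraries, and the highest field library was 4.23 times the lowest, against 1.33 times among the shaded libraries. Its log2 fold change in edgeR was 2.35 ± 0.61 (SE from log2 CPM, counts scaled to library size, with 3 libraries per condition). Here and below the SE is that of the difference in mean log2 CPM between conditions. It is not the error of edgeR's estimate, and the difference itself can depart from that estimate where libraries spread widely. The second, of 786 bases, had 4090, 3780 and 2346 FPKM in shaded replicates 1 to 3 and 33.5, 88.5 and 406 FPKM in field replicates 1 to 3. Its field libraries were spread over a 12.1-fold range with field replicate 3 highest, and its log2 fold change was 4.26 ± 1.03.

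The third, of 1815 bases, had 2480, 1845 and 1199 FPKM in the shaded libraries and 150.2, 408 and 528 FPKM in the field libraries, a log2 fold change of 2.30 ± 0.61. The fourth, of 1007 bases, had 1633, 1826 and 1362 FPKM under shade and 153, 315 and 546 FPKM in the field (2.20 ± 0.51). The fifth, of 1560 bases, had 2094, 1552 and 1133 FPKM under shade and 31.8, 105 and 441 FPKM in the field (3.01 ± 1.104). In all 5 of these most abundant unigenes field replicate 1 was the lowest of the field libraries and field replicate 3 the highest.

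The widest gap between conditions belonged to Unigene14279_All, of 1313 bases and the sixth in abundance. It had 1613, 1492 and 1385 FPKM in shaded replicates 1 to 3, against 10.2, 13.8 and 157 FPKM in field replicates 1 to 3. Its lowest shaded library was 8.82 times its highest field library, yet field replicate 3 alone was 15.4 times field replicate 1, the widest field spread among the 90 unigenes. The log2 fold change was 4.59 ± 1.23 with all libraries and 6.89 without field replicate 3.

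A 2335-base unigene came next by that gap and looked different. It had 177, 227 and 233 FPKM in the shaded libraries and 21.1, 23.05 and 19.9 FPKM in the field libraries, so that its field level was nearly the same in each library. Its log2 fold change was 3.25 ± 0.14 and stayed between 3.18 and 3.39 with 1 library left out. A 2228-base contig had 1078, 763 and 761 FPKM under shade and 10.6, 16.8 and 102 FPKM in the field (log2 fold change 4.28 ± 1.0). A 1046-base unigene had 1583, 800 and 509.9 FPKM under shade and 11.99, 28.35 and 71.9 FPKM in the field (4.66 ± 0.86), the largest ratio of means, 25.8, and also the most variable shaded level, with a coefficient of variation of 0.576.

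At the other end, the members nearest to the factor of 2 were fairly steady within each condition, which did not hold for all members close to it. A 978-base contig had 123.3, 123.4 and 123.5 FPKM in the shaded libraries and 61.3, 53.15 and 53.6 FPKM in the field libraries, the smallest shaded coefficient of variation of the 90. A 933-base contig had 1594, 1405 and 1354 FPKM under shade and 675, 662 and 575 FPKM in the field. A 765-base contig had 412, 345 and 323 FPKM under shade and 152, 112 and 160.4 FPKM in the field. Their lowest shaded library was 2.004 to 2.015 times their highest field library, and their log2 fold changes were 1.12 ± 0.14 for the 933-base, 1.07 ± 0.11 for the 978-base and 1.28 ± 0.21 for the 765-base contig.

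The unigene nearest to the factor of 2 from outside, of 1915 bases, had 145, 132 and 172 FPKM under shade and 66.3, 59.3 and 51.15 FPKM in the field, a ratio of lowest to highest of 1.99. The next, of 799 bases, had 193, 191 and 114 FPKM under shade and 19.7, 35.8 and 57.9 FPKM in the field, a ratio of 1.97. The one after had a ratio of 1.94. The weakest shaded library among the 90 held 100.8 FPKM, and a 1387-base contig with a lowest shaded library of 99.3 FPKM was left out. The weakest field library held 10.2 FPKM, and an 849-base unigene with 9.88 FPKM there was left out. The longest of the 90 (3118 bases) had 431, 360 and 364 FPKM under shade and 119.7, 145 and 168 FPKM in the field. One of the shortest (585 bases) had 446.5, 411 and 321 FPKM under shade and 26.6, 59.4 and 119 FPKM in the field.

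**Figure D2:**
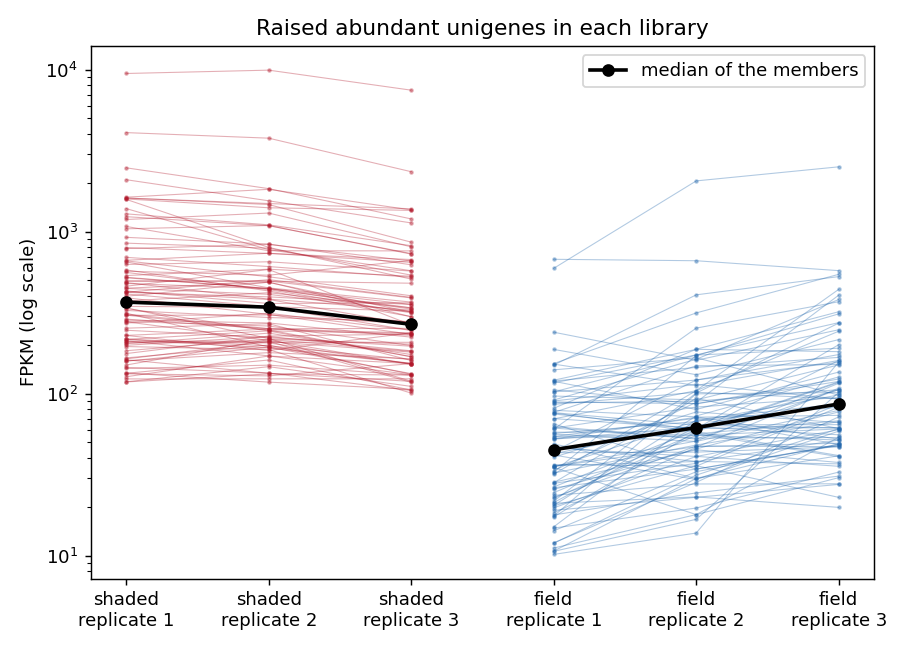
FPKM (log scale) of each of the 90 raised unigenes in the 3 shaded libraries (red, left) and the 3 field libraries (blue, right); thin lines join the values of 1 unigene within a condition, and replicates have no order. The black median is 368, 342 and 268 FPKM in shaded replicates 1 to 3 and 45.1, 61.7 and 86.4 FPKM in field replicates 1 to 3.

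The order of libraries within a condition took no part in the selection, and most of the 90 unigenes shared it. Field replicate 3 was the highest field library in 65 of the 90 (72.2%) and field replicate 1 the lowest in 63 (70%). Both held at once in 51 (56.7%), against 19% of the 7862 other unigenes that passed the length and field minimum and 26.9% of the 647 that were also at 100 FPKM or more in each shaded library. Within the shaded libraries, replicate 3 was the lowest in 75 of the 90 (83.3%), against 57.8% of the 647 and 42.5% of the 7862, and replicate 1 the highest in 53 (58.9%), against 40% and 30.3%. On CPM scaled by TMM, which does not use transcript length, field replicate 3 was highest in 62 and field replicate 1 lowest in 56, and shaded replicate 3 was lowest in 73. Library order also stood out in the 58 unigenes of the mirror rule, abundant in the field and at least 2 times lower under shade. There shaded replicate 1 was lowest in 63.8% and field replicate 3 lowest in 56.9%, against 43% and 37% of the 7862. Field replicate 1 was highest in 27.6% of the 58, against 31.2%. An uneven order was thus not particular to the 90. These are shares of unigenes from the same 6 libraries and carry no test.

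The median level of the 90 thus ran opposite ways in relation to fragment length. Shaded replicate 1, a short-fragment library, had the highest shaded median, 368 FPKM, while field replicates 1 and 2, also short-fragment libraries, had medians of 45.1 and 61.7 FPKM, below the 86.4 FPKM of the long-fragment field replicate 3. The 647 unigenes over the same shaded minimum that were not raised were less abundant under shade, with medians of 195, 199 and 179 FPKM in shaded replicates 1 to 3 and 159, 147 and 184 FPKM in field replicates 1 to 3, so they are not matched to the 90 in level. The part of flower stage or plant in these library differences was not tested, as the labels record neither per library.

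Spread between libraries of a condition was set beside that of the unigenes that were not raised. The highest field library was a median of 1.93 times the lowest, against 1.62 times in the 647 and 1.47 times in the 7862, and it was over 3 times in 31 of the 90 (34.4%), against 17% of the 647 and 7.73% of the 7862. In 30 of those 31 field replicate 3 was the highest, and in 30 field replicate 1 was the lowest. In the shaded libraries the corresponding median was 1.36 times, against 1.33 and 1.37 times, and 1 of the 90 exceeded 3 times. The rule sets a floor for the shaded libraries, and a lower floor and a ceiling for the field libraries. Under the mirror rule the shaded libraries were the more spread, with a median of 2.03-fold against 1.74-fold in the field. No contrast between shaded and field libraries is therefore read from these spreads.

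How far the field libraries of a member can spread is tied by the rule to its shaded level, since each field library needs 10 FPKM and none may exceed the lowest shaded library divided by 2. No relation between level and field spread is therefore read within the 90. Between length and the ratio of means Spearman's rho was -0.04 over the 90, a description across unigenes that share the same 6 libraries.

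**Figure D3:**
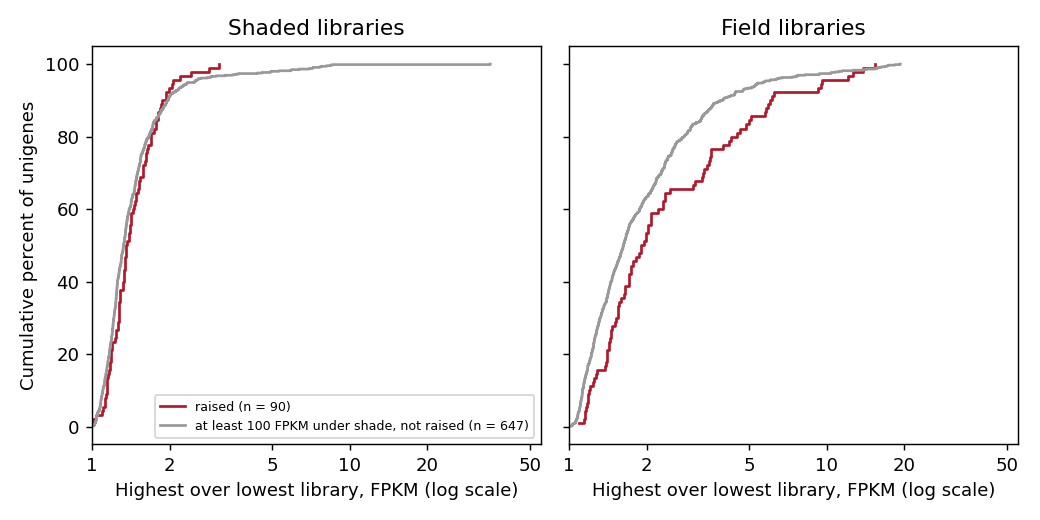
Cumulative percent of unigenes (vertical) by the ratio of highest to lowest library within a condition (horizontal, log scale), for the 3 shaded libraries (left) and the 3 field libraries (right). In the field panel the 90 raised unigenes (red, median 1.93) lie mostly to the right of the grey line (median 1.62). Grey marks the 647 unigenes over the same shaded minimum that were not raised and are not matched in level. The shaded medians are 1.36 and 1.33. The rule shapes these spreads, so no contrast between the panels is read.

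In edgeR's quasi-likelihood test over all 46778 unigenes with enough counts, all 90 were tested and 82 were called higher under shade at a Benjamini-Hochberg adjusted p under 0.05, where 4.72% of all tested unigenes were called higher. The rule used this contrast, so nothing is read from that count. The median log2 fold change was 2.17 over the 90, from 1.07 to 4.66, and -0.02 over all tested unigenes. The 8 that were not called had wide field spreads, a median of 5.96-fold against 1.80-fold in the 82, and were more abundant, with a median shaded mean of 844.4 FPKM against 305 FPKM. They included the fifth and the eighth most abundant of the 90. The rule ties field spread to shaded level, so no relation between the 2 is read here either. The count depended on the libraries. It was 85 when field replicate 3 was left out, 49 when field replicate 1 was, and 41 when field replicate 2 was, with 4.18%, 1.61% and 1.54% of all unigenes called higher. Leaving out a shaded library gave 32 for replicate 1, 12 for replicate 2 and 67 for replicate 3, with 0.936%, 0.538% and 2.37% of all unigenes. It was 90 with the DESeq2 Wald test (9.07% of all), 88 with limma (6.75%), 79 with no filter on low counts (2.86%) and 58 with the fragment class as a covariate (2.35%). All 90 kept a positive log2 fold change in each of these fits. The rule all but fixes this, as it puts each shaded library above each field library in FPKM.

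How often unigenes chosen on 4 libraries also differed in the remaining libraries was measured on held-out pairs. For each of the 9 pairs of 1 shaded and 1 field library, the rule was applied to the other 4 libraries and the level was then read in the pair. The rule chose 102 to 250 unigenes, of which 49.6% to 97.1% (median 90.3%) were at least 2 times higher in the held-out shaded library than in the held-out field library. Among unigenes not chosen but at 100 FPKM or more in the remaining shaded libraries, a set not matched in level, the share was 6.41% to 30.1%, and among all others over the length and field minimum it was 5.46% to 13.5%. Simply higher in the held-out shaded library were 87.3% to 100% of the chosen unigenes and 51.3% to 72.2% of those not chosen at 100 FPKM or more. The lowest shares came from pairs with field replicate 3, 49.6% to 71.8%, while pairs with field replicate 1 gave 90.3% to 97.1%. The pairs overlap in libraries, so these are descriptions and not 9 independent repeats. By the rule itself the 90 are among the chosen in every pair and meet the factor of 2 there. The unigenes not chosen had failed the rule in the same 4 libraries. The shares therefore describe the rule on 4 libraries and are no test of the 90.

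**Figure D4:**
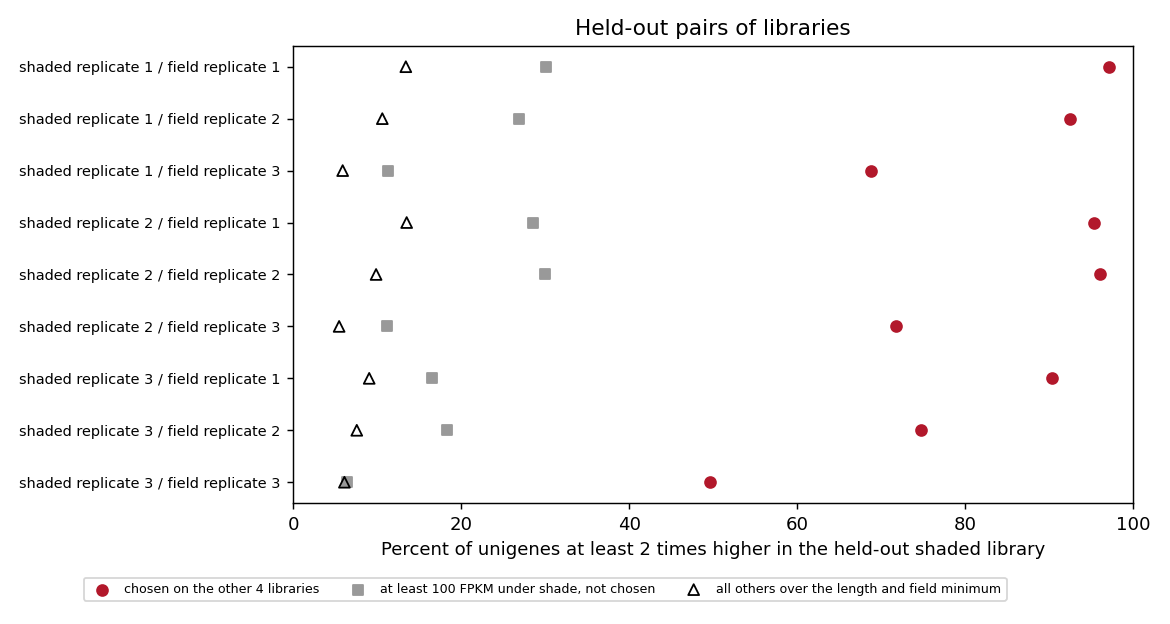
Percent of unigenes at least 2 times higher in the held-out shaded library than in the held-out field library, for each of the 9 pairs. Unigenes chosen on the other 4 libraries (red) reach 49.6% to 97.1%, unigenes at 100 FPKM or more under shade but not chosen (grey) 6.41% to 30.1%, and all others over the length and field minimum (open triangles) 5.46% to 13.5%. The red sets include the 90, which meet the factor of 2 in each pair by the rule itself.

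The assembly grouped 57 of the 90 into 45 clusters of contigs, and 33 were single unigenes. Contigs of one cluster may be alleles, copies from the subgenomes of this allotetraploid, splice forms or related genes, and the tables do not say which. RSEM divides the reads they share, which leaves each contig's own level less certain than that of a single unigene. There were 11 clusters with more than 1 member, 10 with 2 and 1 with 3, and in 5 clusters every contig was a member.

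The cluster with 3 members held 7 contigs and was nearly all accounted for by them, with 99.7% of its shaded and 99.9% of its field counts. Besides the 786-base contig given above, its 1135-base contig had 1615, 1471 and 862 FPKM in shaded replicates 1 to 3 and 60.3, 254 and 370 FPKM in field replicates 1 to 3. Its 1396-base contig had 1042, 1092 and 727 FPKM under shade and 32.8, 172 and 311 FPKM in the field. The contigs shared one order of field libraries but not one size of change, since the log2 fold changes were 4.26, 2.49 and 2.43. Summed, the cluster had 5335, 4806 and 3060 CPM in the shaded libraries and 127, 510 and 973 CPM in the field libraries.

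A pair of members made up a whole cluster of 2 contigs. The 987-base contig had 666, 736 and 646 FPKM under shade and 43.9, 122 and 156 FPKM in the field, and the 854-base contig had 492, 496 and 390.0 FPKM under shade and 76.6, 149 and 151 FPKM in the field. The first held 63.9% of the cluster's counts under shade and 50.8% in the field.

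Other contigs of the members' clusters were measured too but did not meet the rule. There were 141, of which 100 had enough counts to be tested. In edgeR with Benjamini-Hochberg adjustment over all unigenes, 28 were called higher under shade (28%), where 4.5% of all tested cluster contigs were, and 3 were called lower (3%), where 4.9% were. Their median log2 fold change was 0.90, and 79 of 100 were above 0, against a median of -0.01 for all tested cluster contigs. Contigs that share reads with a member are tied to it, and how much of the count rests on that was not tested. Leaving out a field library gave 13 called higher for replicate 1, 10 for replicate 2 and 28 for replicate 3. Of all tested unigenes 1.61%, 1.54% and 4.18% were called higher in these fits. Leaving out a shaded library gave 7, 4 and 21 for replicates 1 to 3, with 0.936%, 0.538% and 2.37% of all tested unigenes.

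The most abundant of these other contigs belonged to a cluster of 9, where the member (the 1007-base contig above) held 13.2% of the shaded and 8.13% of the field counts. Its 711-base contig had 10563, 8496 and 6327 FPKM in the shaded libraries and 1696, 2750 and 4434 FPKM in the field libraries, with no call (log2 fold change 1.48 ± 0.42, adjusted p = 0.072 in edgeR). Its 768-base contig had 5684, 7134 and 4853 FPKM under shade and 1434, 2335 and 2597 FPKM in the field, and rose (1.41 ± 0.27, adjusted p = 0.042 in edgeR, 0.051 to 0.159 with 1 library left out). All shaded libraries lay above all field libraries in both contigs, by less than the factor of 2.

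Summing the contigs of each cluster shows where a member stood for its cluster and where it did not. Of the 45 summed clusters 34 were called higher under shade, where 7.65% of all summed clusters and single unigenes were, and their median log2 fold change was 1.73. The clusters were taken because they hold a raised contig, which with any other members carries a median of 85.1% of their shaded counts, so nothing is read from that count. The highest was 3.92, in a cluster carried by 1 member with 100% of its field counts. The lowest was -0.29, in a cluster of 2 contigs: the member, of 1880 bases, had 150.2, 216 and 183 FPKM under shade and 70.2, 61.1 and 61.6 FPKM in the field, while the other contig, of 1536 bases, had 68.2, 62.9 and 133 FPKM under shade and 469, 193 and 205 FPKM in the field. The member held 72.4% of that cluster's counts under shade and 22.4% in the field, so the contig mixture differed more than the cluster's sum.

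A similar exchange was seen in a cluster of 12 contigs, with a summed log2 fold change of 0.14. Its member held 24.5% of the shaded and 3.91% of the field counts. More of the shaded counts, 52.5% against 6.38% in the field, lay on a 2424-base contig that was not a member. That contig was also called higher, with a log2 fold change of 3.21. CL3534.Contig4_All, of 2258 bases, had 17.3, 40.5 and 57.2 FPKM there in shaded replicates 1 to 3, against 199.4, 199.6 and 109 FPKM in field replicates 1 to 3, and fell (log2 fold change -2.21 ± 0.59, adjusted p = 0.037 in edgeR, 0.045 to 0.137 with 1 library left out). In a cluster of 17 contigs with 2 members, CL9166.Contig5_All, of 2147 bases, had 0.54, 0.78 and 0.52 FPKM under shade, against 20.4, 11.9 and 37.9 FPKM in the field, and also fell (-5.31 ± 0.52, adjusted p = 0.0056 in edgeR, 0.0055 to 0.036 with 1 library left out). In that cluster of 17 the members' share differed little, at 27.2% of the shaded and 27.9% of the field counts. Its summed log2 fold change was 1.26, and the fallen contig held 3.57% of the field counts. It was thus not an exchange like those above. Both fallen contigs were picked out after their values were seen, from the 3 contigs called lower. In 30 of the 45 clusters the members held a larger share of the counts under shade than in the field, with medians of 85.1% under shade and 75.2% in the field, which follows in part from choosing contigs that were raised.

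**Figure D5:**
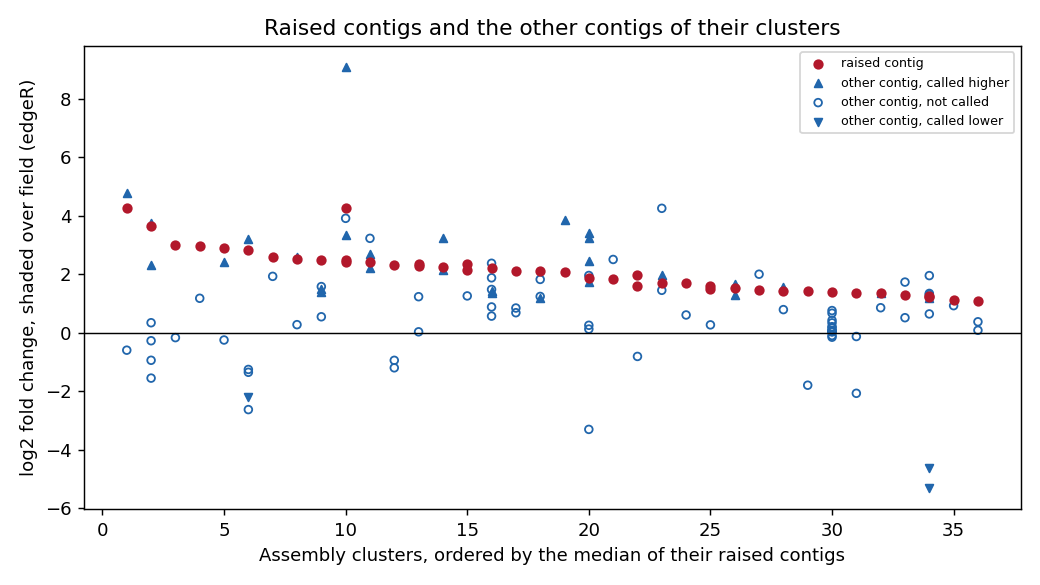
Log2 fold change of shaded over field (edgeR, vertical) for the raised contigs (red) and the other tested contigs of their clusters (blue; filled triangles are called), in the 36 clusters with another tested contig, ordered by the median of their raised contigs. Of the 100 other contigs 79 lie above 0, 28 are called higher and 3 lower.

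Length and assembly class were not used beyond the minimum of 500 bases. The median length of the 90 was 1509 bases (quartiles 1137 and 1996), against 1402 in the 647 unigenes over the same shaded minimum that were not raised and 1565 in the 7862. Cluster contigs made up 63.3% of the 90, 53.6% of the 647 and 62.5% of the 7862, and their clusters had a median of 3 contigs in all of these sets. The mirror of the rule, abundant in the field and at least 2 times lower under shade, found 58 unigenes with a median length of 1601 bases. In those 58 the shaded libraries were the more variable, with a median of 2.03-fold between highest and lowest, against 1.74-fold between field libraries. In both sets the condition chosen to be low was thus the more variable. The rule and its mirror limit these spreads, so no contrast between shaded and field libraries is read from them. Steady unigenes, with at least 100 FPKM in each library and under 2-fold between the highest and lowest, numbered 201 and were shorter, with a median of 1230 bases.

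By weight, the 90 unigenes took 7.12%, 6.23% and 4.83% of all expected counts in shaded replicates 1 to 3, against 0.789%, 1.14% and 1.59% in field replicates 1 to 3. The means were 6.06% ± 1.15 under shade and 1.17% ± 0.40 in the field (SD, 3 libraries each), and 4.83% ± 0.83 and 0.98% ± 0.28 without the 5 most abundant. The 58 lowered unigenes took 0.632% ± 0.155 under shade and 3.93% ± 0.69 in the field. Both sets were selected on the levels that these shares add up, and the shares are given for scale.

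Within the short-fragment libraries, 1 shaded and 2 field, the median log2 difference in CPM over the 90 was 2.70, and within the long-fragment libraries, 2 shaded and 1 field, it was 1.68, against 2.28 over all libraries. All 90 were above 0 in both classes. The rule all but fixes this, as it puts each shaded library above each field library in FPKM, so nothing is read from it. One condition had a single library in each class, so no test was made within them. Over the 9 pairs of single libraries the median ranged from 1.51, for shaded replicate 3 over field replicate 3, to 2.74, for shaded replicate 1 over field replicate 1.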

How the data were processed

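Petal RNA was sequenced in 3 shaded and 3 field libraries. Per the submitters' processing notes, RSEM 1.2.12 and DESeq were used; the assembly and aligner were not given in the sources used here. Per the file headers, each deposited table gives length, expected count (estimated, not normalised) and FPKM by the authors. A unigene missing from a table was set to 0. Groups came from the source labels and replicate numbers from the titles. Expected counts were rounded and tested with edgeR 4.0.16 (R 4.3.3; TMM, filterByExpr at a count minimum of 10, robust quasi-likelihood test, two-sided, Benjamini-Hochberg), shaded against field without covariates. SEs came from log2 CPM with a prior count of 2, for the difference in group means, and not from the edgeR fit. Only the main edgeR fit was also run on simulated counts. Alternatives used DESeq2 1.42.0, limma 3.58.1 on log2(FPKM + 1), no filter, fragment class, cluster sums, replicate blocks and single libraries left out. Unigenes were named by rank in level, gap between conditions, variability, length and cluster. The members, sets and rules were chosen with earlier results of these data known. Python 3.11.15 and pandas 2.3.3 were used for the joins.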

Additional observations from a re-analysis of the deposited data

How the results depend on the processing

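The rule gave 90 unigenes, and 31 at a factor of 3, 157 at a factor of 1.5, 56 at 200 FPKM under shade, and 94 to 160 with 1 library left out (159 without shaded replicate 3 and 160 without field replicate 3). It gave 133 at 50 FPKM, 134 with no field minimum, 93 with no length minimum, 82 with the factor taken from CPM, and 78 with 1 unigene per cluster, a count added after seeing the data. The called unigenes, 4795 in all and 82 of the 90, became 9238 and 90 with the DESeq2 Wald test, 8218 and 88 with limma, 10417 and 79 with no filter, 2315 and 58 with the fragment class, 4802 and 82 with DESeq2 size factors, 5011 and 77 with cluster sums, and 690 to 4096 and 12 to 85 with 1 library left out. With cluster sums the members of a cluster share 1 result, so the 77 stand for 67 called of 78 clusters and single unigenes. The labels do not pair the libraries, and deviations of same-numbered libraries correlated at -0.03, 0.02 and -0.13. With the replicate block, 371 and 2 were called (0.314% of all called higher), in a fit with fewer degrees of freedom left over. The 28 other contigs called higher became 48 with DESeq2 (9.07% of all tested unigenes called higher), 43 with limma (6.75%) and 47 with no filter (2.86%). They became 0 with the replicate block (0.314%) and 4 to 28 with 1 library left out (0.538% to 4.18%). All these counts were added after seeing the data. What moved these counts: the cause was not tested. The count share was 4.89 points higher under shade, 4.36 to 5.50 with 1 library left out, and the held-out median was 90.3%, or 87.9% in CPM. A list of 21 members was picked by rank, gap, variability, length and cluster, and it is not the same as the members described above. Of 273 alternative fits for these 21, 166 kept their side of the threshold, 99 lost the call and 8 gained it, and none changed direction. Over all 90, 89 were positive with cluster sums, the exception being the 1880-base member given above.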
